A study of Mus musculus with 9 samples.

Results

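Acinar cells of the pancreas make the enzymes that digest a meal, and 9 of their secretory genes are described here in mice homozygous for the Glis3zf mutation and in wild-type (WT) mice. The 9 genes are Amy2, Cpa1, Clps, Cel, Cpb1, Rnase1, Prss2, Pnliprp1 and Ctrb1. At embryonic day 15.5 (E15.5) each was read from 1 named probe set, 9 of 45037 in the table. On postnatal day 3 (PND3) they were read from every non-control probe that carries the gene's symbol, 10 of 41174 probes, since Rnase1 has 2. The Glis3 product is a transcription factor of the Krüppel-like zinc finger kind. Glis3zf/zf animals were set against WT ones, and all are labelled C57BL/6. At E15.5 there were 3 WT samples (replicates 1 to 3) and 4 mutant samples (replicates 2 to 5), 1 array each on a 1-colour Affymetrix platform. At PND3 each genotype is 1 RNA pool from 2 pups. The pools were co-hybridised to 2 Agilent 2-colour arrays, with the dyes exchanged on the second. The labels give the tissue as pancreas throughout, so a lower level in such bulk RNA cannot be told apart from fewer acinar cells. At PND3 the kidney marker Umod read 47875 for mutant and 50921 for WT RNA, far above every enzyme. The label alone therefore does not establish which tissue those pools hold.

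Acinar enzymes are made in bulk, stored in zymogen granules and released into the duct when a meal reaches the gut. The proteases leave the cell as inactive precursors. Trypsin, once activated in the gut lumen, cleaves the other precursors. Transcription of these genes is driven by a complex of the factors Ptf1a and Rbpjl, with Nr5a2 and Bhlha15 as further acinar regulators, and it rises steeply in the embryonic pancreas as acinar cells differentiate.

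Promoters are shown for 4 members. Cpb1, Prss2 and Cel stood well below the other E15.5 arrays on WT replicate 2, whereas Cpa1 hardly varied on any array. Over the arrays other than WT replicate 2, Cpb1 spanned only 1.18-fold. Rnase1, with an empty cell on WT replicate 2, has a promoter entry that is not printed. Whether promoter sequence has a part in these values was not tested. The RefSeq table (GRCm38.p6) held an entry for 7 of the 9 members, and each printed run is the 150 bases before the annotated start, 5′ to 3′ on the gene's strand. Capitals mark matches on either strand to CANNTG (the E-box, bound by factors such as Ptf1a), TGGGAA (the core bound by Rbpj and Rbpjl), AAGGTCA (a half-site bound by Nr5a2) or TATAAA (the TATA box).
Cpb1, chr3:20275734-20275883, minus strand: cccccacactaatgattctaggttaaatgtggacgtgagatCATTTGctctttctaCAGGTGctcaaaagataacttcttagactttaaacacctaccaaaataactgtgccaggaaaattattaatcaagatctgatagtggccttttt
Prss2, chr6:41521626-41521775, plus strand: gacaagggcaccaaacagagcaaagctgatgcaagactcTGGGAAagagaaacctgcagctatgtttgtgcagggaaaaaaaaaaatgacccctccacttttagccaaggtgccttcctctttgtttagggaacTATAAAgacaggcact
Cel, chr2:28563404-28563553, minus strand: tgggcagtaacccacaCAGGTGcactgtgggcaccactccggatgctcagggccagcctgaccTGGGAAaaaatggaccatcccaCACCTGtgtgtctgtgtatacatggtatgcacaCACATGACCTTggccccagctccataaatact
Cpa1, chr6:30639068-30639217, plus strand: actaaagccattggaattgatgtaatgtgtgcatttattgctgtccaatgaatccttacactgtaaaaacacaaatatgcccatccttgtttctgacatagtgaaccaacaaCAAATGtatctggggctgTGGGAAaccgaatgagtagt
Over windows of 300 bases (250 before the start and 50 after it), 6 of the 7 members held a CANNTG, as did 72.3% of all 32851 promoters in the table. TGGGAA was found in 6 of the 7 and in 25.6% of all promoters, and the member without it was Cpb1. AAGGTCA was found in 1 of the 7, Cel, where it overlaps an E-box, and in 4.72% of all promoters. TATAAA was found in 2 of the 7 and in 13.6% of all promoters. It lay at -16 from the start in Prss2 but at 35 in Cpb1, which is after the start. The member without an E-box in this window was Rnase1. A match to these letters describes the sequence and is not a measured binding site.

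Each E15.5 array had a value for 23701 to 25409 probe sets and empty cells for the rest, and 20273 probe sets were listed on all 7. One WT array stood apart for several members, so it is described before the genotypes are compared. After quantile normalization, 3.14% of the 12164 probe sets tested were at least 2-fold lower on WT replicate 2 than the median of the other 6 arrays, against 0.0247% to 1.49% on the other arrays. WT replicate 2 also listed the most probe sets and had the highest median intensity, 566.9, against 399.1 on the lowest array, mutant replicate 5. Whether these features have a part in the enzyme values below was not tested. At PND3 the Glis3 probe read 22.1 and 21.5 for WT RNA, well above background on both arrays, and 3.88 and 3.39 for mutant RNA, above background on neither. The position of that probe relative to the mutation is not known here.

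Cpb1 and Cpa1 encode carboxypeptidases, which trim amino acids from the end of a peptide chain. Cpb1 stood at intensities of 18858, 2534 and 18561 in WT replicates 1, 2 and 3, and at 17574, 19073, 17855 and 16155 in mutant replicates 2, 3, 4 and 5. WT replicate 2 was 7.18-fold below the median of the other 6 arrays, which themselves spanned 1.18-fold. Cpa1 stood at 20429, 20971 and 21747 in WT and at 22217, 22582, 22469 and 20536 in mutant samples, so WT replicate 2 was inside the range of the others. The carboxypeptidases therefore differed sharply on the same array.

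Prss2 and Ctrb1 encode endoproteases, an anionic trypsinogen and a chymotrypsinogen. Prss2 stood at 14039, 3075 and 11378 in WT and at 10581, 10369, 11279 and 6769 in mutant samples. WT replicate 2 was again the lowest, 3.55-fold below the median of the other 6 arrays, and mutant replicate 5 was the next lowest. Ctrb1 stood at 18055, 20743 and 21138 in WT and at 23383, 20260, 21523 and 19616 in mutant samples, with WT replicate 2 near the middle and WT replicate 1 the lowest. Prss2 belongs to a family of close trypsinogen paralogs, and its probe set may bind more than 1 of them.

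Cel, Clps and Pnliprp1 belong to fat digestion. Cel, the bile salt-dependent carboxyl ester lipase, stood at 22461, 10783 and 14228 in WT and at 20887, 19814, 19615 and 18229 in mutant samples. The lowest arrays were WT replicates 2 and 3, and the 4 mutant arrays lay between WT replicates 3 and 1. Clps encodes colipase, the cofactor that anchors pancreatic lipase to fat droplets. It stood at 23067, 16887 and 22988 in WT and at 21958, 24195, 23291 and 20081 in mutant samples, with WT replicate 2 the lowest by 1.36-fold against the median of the others. Pnliprp1, a lipase-related protein of the pancreas, went the other way. It stood at 16463, 23067 and 18624 in WT and at 18180, 17858, 16654 and 17572 in mutant samples, and here WT replicate 2 was the highest array.

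Amy2 encodes pancreatic amylase, which cuts starch. Its probe set stood at 30904, 30800 and 33563 in WT and at 33112, 33756, 33156 and 30602 in mutant samples, a span of 1.10-fold over the arrays other than WT replicate 2. The RefSeq table lists 5 genes that carry Amy2 as symbol or synonym, all on chromosome 3, so this probe set cannot be assigned to 1 amylase gene. Its intensity was the highest of any probe set on 3 of the 7 arrays and among the 8 highest on each. So near the top of the scale, quantile normalization leaves only the probe set's rank, and 3 of the 4 mutant arrays share 1 normalized value.

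Rnase1, the secreted pancreatic ribonuclease, was the member with an empty cell. It stood at 8669 and 3867 in WT replicates 1 and 3, and at 8025, 11200, 8260 and 3402 in mutant replicates 2, 3, 4 and 5, and it was empty on WT replicate 2. The array without a value is the one on which Cpb1 and Prss2 were lowest. Of 234 probe sets empty on WT replicate 2 and listed on the other 6 arrays, Rnase1 had the highest median intensity on those arrays, 8142, where their typical median was 127.6. No probe set empty on just 1 of the other arrays reached that median. The listed values of Rnase1 spanned 3.29-fold among mutant samples alone, the widest span of any member there.

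**Figure D1:**
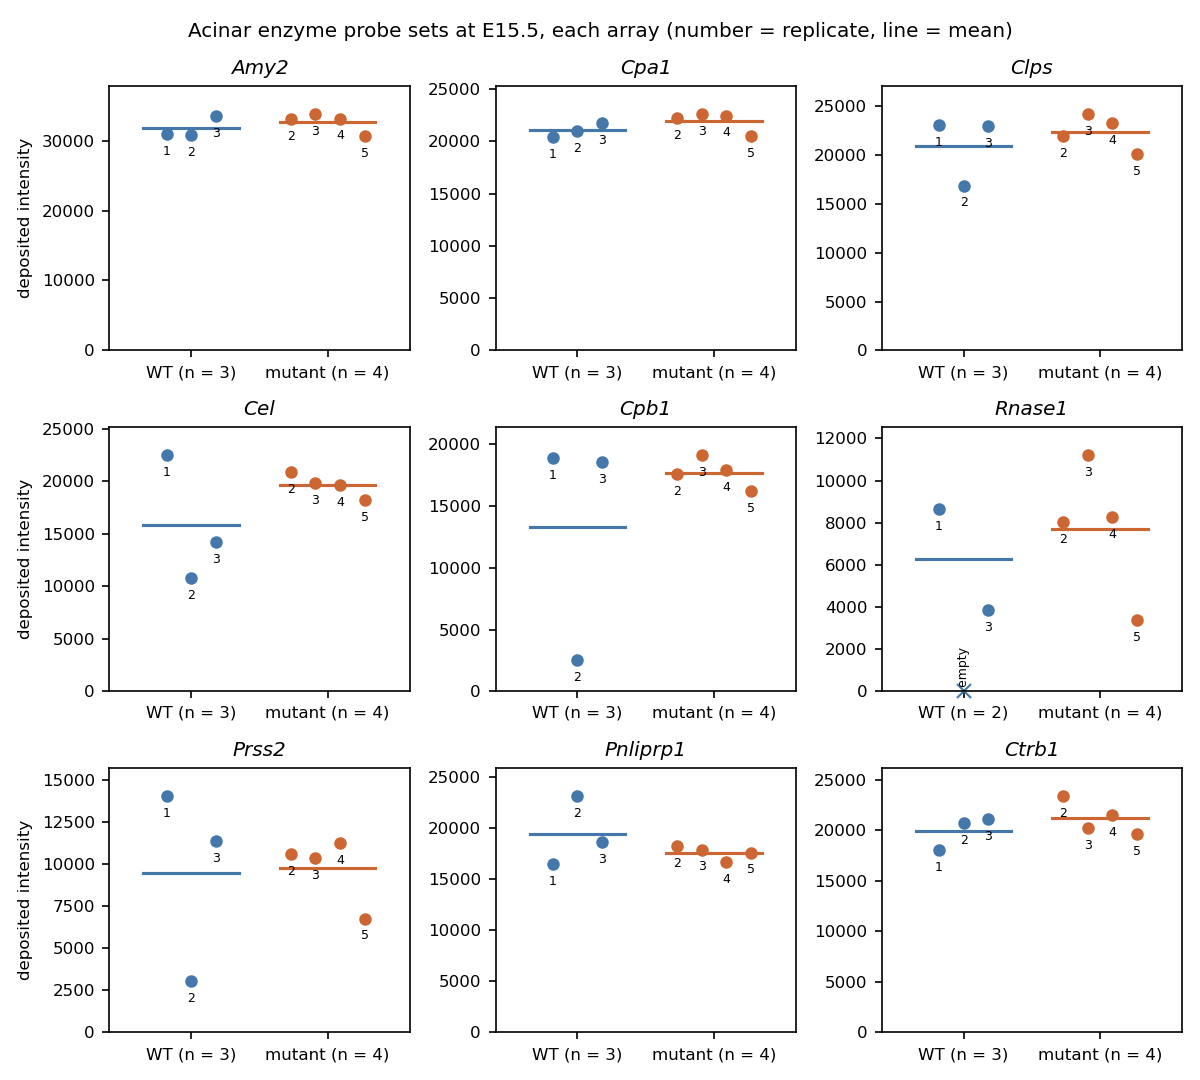
Deposited intensity (vertical axis, from 0) of the 9 enzyme probe sets on each E15.5 array, with WT samples on the left (n = 3, or 2 for Rnase1) and mutant samples on the right (n = 4); numbers are replicates, lines are means of the listed values, and a cross marks the empty Rnase1 cell. WT replicate 2 lies far below the other arrays for Cpb1 (2534) and Prss2 (3075), is the lowest array for Cel and Clps, and is the highest for Pnliprp1 (23067).

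The same arrays can be read as distances on the log2(intensity + 16) scale used for testing, where a distance of 1 is 2-fold. Against the median of the other 6 arrays, WT replicate 2 stood at -3.09 for Cpb1, -2.01 for Prss2, -0.997 for Cel and -0.50 for Clps. It stood at -0.14 for Amy2, -0.12 for Cpa1, -0.04 for Ctrb1 and 0.35 for Pnliprp1. Only 20 of the 12164 probe sets tested (0.164%) were as far below the others on that array as Cpb1. On the remaining 6 arrays no member listed on all arrays was more than 0.64 from the median, and that value was Cel on WT replicate 3, at -0.64. Among these 6 arrays Cpb1 stayed within 0.06, whereas Prss2 ranged from -0.41 on mutant replicate 5 to 0.45 on WT replicate 1.

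**Figure D2:**
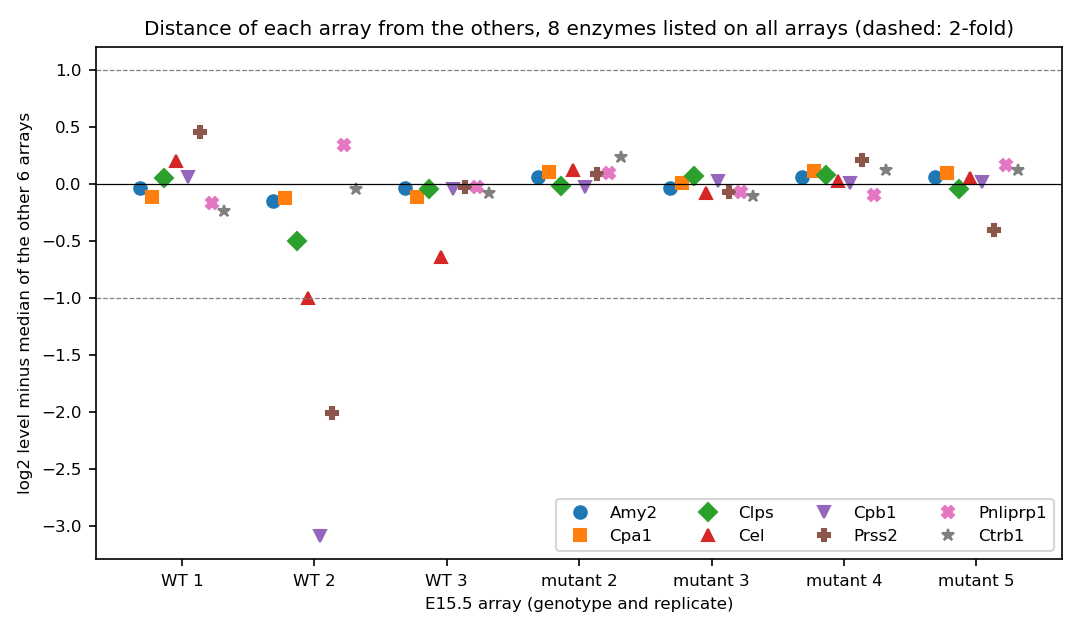
Log2 level of the 8 enzymes listed on all arrays, minus the median of the other 6 arrays (vertical axis), for each E15.5 array (horizontal axis); dashed lines mark 2-fold. Cpb1 at -3.09 and Prss2 at -2.01 on WT replicate 2 are the points beyond 2-fold, and all points of the other arrays lie within 0.64.

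No member passed the test for a difference between genotypes at E15.5. Limma called 0 of the 8 members tested at an adjusted p under 0.05, as it called none of the 12164 probe sets (0%), and every member had an adjusted p of 1. At an unadjusted p under 0.05 it counted 2 members, Cpa1 and Ctrb1, where 2.25% of all probe sets tested were counted. That count depended on the setting: it was 4 with median centring and 4 without WT replicate 1, 1 without mutant replicate 2, 4 or 5, and 0 without scaling or without the trend. With the replicate number as a block it was 4 other members, Clps, Cel, Cpb1 and Prss2. Only replicates 2 and 3 occur in both genotypes, so that fit takes its differences from these 2 pairs, 1 of which holds WT replicate 2. The fitted difference was higher in mutants for 7 of the 8, where 48.7% of all probe sets were higher, and the members' median was 0.17 against -0.0046 over all. Most of that median came with 1 array. Without WT replicate 2 the median was 0.06 for the same 8 members and 0.0098 over all, with 2 of 9 members under an unadjusted p of 0.05 (1.93% of all probe sets) and 0 called by limma after adjustment.

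Cpb1 had the largest estimate, 1.03 higher in mutants (SE 0.65, 95% interval -0.44 to 2.49), with a WT log2 level of 13.12 ± 1.78 (SD, n = 3) and a mutant one of 14.15 ± 0.02 (SD, n = 4). It was the only member at or past 2-fold, which 0.641% of all probe sets tested reached. Without WT replicate 2 the Cpb1 difference was -0.0028 (SE 0.05, 95% interval -0.11 to 0.11). The estimate for Prss2 was 0.48 (SE 0.48, 95% interval -0.61 to 1.58) with all arrays and turned to -0.26 (SE 0.18) without that array. For Cel it was 0.49 (SE 0.22) with all arrays, 0.24 (SE 0.18) without WT replicate 2 and 0.82 (SE 0.10, adjusted p = 0.128 by limma) without WT replicate 1. For Clps it was 0.18 (SE 0.11), 0.02 (SE 0.04) without WT replicate 2 and 0.28 (SE 0.11) without WT replicate 1. Leaving out WT replicate 1 also raised Cpb1 to 1.57 and Prss2 to 0.96, and leaving out WT replicate 3 raised them to 1.53 and 0.73. For Rnase1, fitted with its 2 listed WT samples, the difference was 0.47 (SE 0.45) with an adjusted p of 1 by limma.

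Cpa1 had the smallest SD among WT samples, 0.0068, and one of 0.03 among mutant samples. Its normalized log2 levels were 14.32, 14.31 and 14.32 in WT and 14.47, 14.40, 14.47 and 14.46 in mutant samples, a difference of 0.13 (SE 0.04, 95% interval 0.05 to 0.22). The genotypes did not overlap on this scale, as was the case for 3.38% of all probe sets tested. In the deposited intensities they did overlap, with mutant replicate 5 at 20536 and WT replicate 3 at 21747. Ctrb1 differed by 0.17 (SE 0.07), Amy2 by 0.08 (SE 0.04) and Pnliprp1 by -0.03 (SE 0.10). Without WT replicate 2 Amy2 fell to 0.02 (SE 0.03) and Pnliprp1 turned to 0.10. Without WT replicate 1 Ctrb1 fell to 0.11 (SE 0.07) and Pnliprp1 stood at -0.13. Without WT replicate 3 Pnliprp1 stood at -0.07. These sizes also depended on how arrays were scaled. With median centring the Cpa1 difference was 0.34, Ctrb1 0.37 and Amy2 0.32, and Pnliprp1 turned to 0.15. Without any scaling they were 0.06, 0.09, 0.04 and -0.13, with the median of all probe sets at -0.25.

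**Figure D3:**
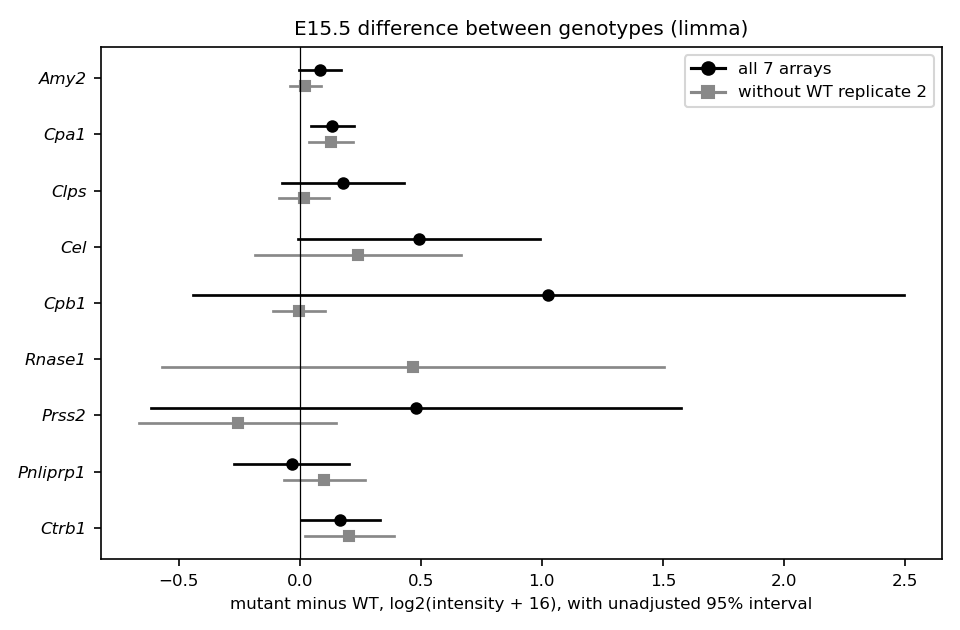
Difference between mutant and WT samples at E15.5 on the log2(intensity + 16) scale (horizontal axis) with its unadjusted 95% interval from limma, for all 7 arrays (circles) and without WT replicate 2 (squares). The Cpb1 estimate moves from 1.03 to -0.0028 and Prss2 from 0.48 to -0.26 without that array; Rnase1 has a value only without it because its cell there is empty.

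The WT arrays varied more than the mutant arrays for 6 of the 8 members, as they did for 76.6% of all probe sets tested. The median SD of the members was 0.26 in WT and 0.06 in mutant samples, and over all probe sets it was 0.27 and 0.16. With WT replicate 2 left out the members' median SD in WT was 0.08, over 2 samples. The probe sets whose centred values over the 7 arrays lay closest to the members' median profile were 1428817_at and 1447053_x_at, at a root mean square distance of 0.04 each in log2 units. The file does not pair them with gene names. A second comparison, chosen after the values were seen, asked which probe sets lay closest to Cpb1 alone. None of the 5 closest was a member. The first 2 were 1415883_a_at and 1435012_x_at, at distances of 0.11 and 0.12, and on WT replicate 2 they lay at -2.44 and -2.47 from their own means over the 7 arrays.

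At PND3 no member was 2-fold apart between the pools, and 7 of the 8 measured gave mean signals below the median over all genes, 607.3. Of the 9 members, 8 were measured, which required a probe that the scanner flagged as well above background on each array for mutant or WT RNA, and all 8 were so for both. Amy2 was not well above background in any of its 4 channel readings, which ran from 10.3 to 15.2. With 1 pool per genotype on a technical pair of arrays there is no test at this age, and no p-value is given. A gene was counted as apart when each array gave a ratio of at least 2-fold and the signs matched, which held for 0.191% of 20923 genes and for 0 of the 8 members. The background offset of 50 draws dim ratios toward 0, so Glis3, at mean signals of 21.8 (WT) and 3.63 (mutant), gave only -0.32. Members with signals under 50, such as Clps, Prss2 and Pnliprp1, could hardly come out 2-fold lower by this rule. By the scanner's own ratios, made without this offset, the count was also 0 of 8.

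The probes that carry these readings are 60 bases long, and 3 are shown because the PND3 result turns on how far each read above background: the Amy2 probe, which did not, and those of the Prss2 and Ctrb1 endoproteases, with the lowest and the highest measured signals. They are printed in lower case as the scanner files give them, with no part marked.
Amy2 probe: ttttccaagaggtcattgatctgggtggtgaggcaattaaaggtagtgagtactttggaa
Prss2 probe: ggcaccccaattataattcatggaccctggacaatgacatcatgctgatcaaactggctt
Ctrb1 probe: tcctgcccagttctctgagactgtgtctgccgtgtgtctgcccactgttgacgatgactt
These signals order the readings only and not the transcripts, because probes differ in binding.

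Among the proteases, Ctrb1 read 754.1 (mutant) and 690.6 (WT) on the first array, where mutant RNA carried Cy3. It read 632.1 and 590.4 on the second, where mutant RNA carried Cy5. Its log2 ratios of mutant over WT were 0.05 and 0.11 after normalization. Prss2 gave 25.2 and 20.1 on the first array and 28.4 and 28.2 on the second, with ratios of 0.04 and -0.06. The chymotrypsinogen ratio thus had the same sign on both arrays and the trypsinogen ratio did not. Cpb1 gave 416.6 and 558.4 on the first array and 413.5 and 461.6 on the second, with ratios of -0.32 and -0.18. Cpa1 gave 44.03 and 64.04, then 43.1 and 49.3, with ratios of -0.26 and -0.12. Both carboxypeptidases were lower in the mutant pool on both arrays, with mean ratios of -0.25 and -0.19.

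Of the fat-digesting proteins, Cel gave 126.2 for mutant and 126.3 for WT RNA on the first array and 88.9 and 83.9 on the second. Its ratios were 0.03 and 0.02. Pnliprp1 gave 40.2 and 44.3, then 32.9 and 33.0, with ratios of -0.10 and -0.05. Clps gave 39.4 and 32.9 on the first array but 29.5 and 45.5 on the second, so its ratios of 0.11 and -0.27 had opposite signs. They were 0.38 apart, beyond the 0.32 that bounds 95% of all genes. The brighter of the 2 Rnase1 probes gave 105.4 and 120.7, then 106.2 and 123.4, with ratios of -0.19 and -0.16. The other Rnase1 probe stood at 0.04 and -0.06, so the 2 probes of that gene disagreed.

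**Figure D4:**
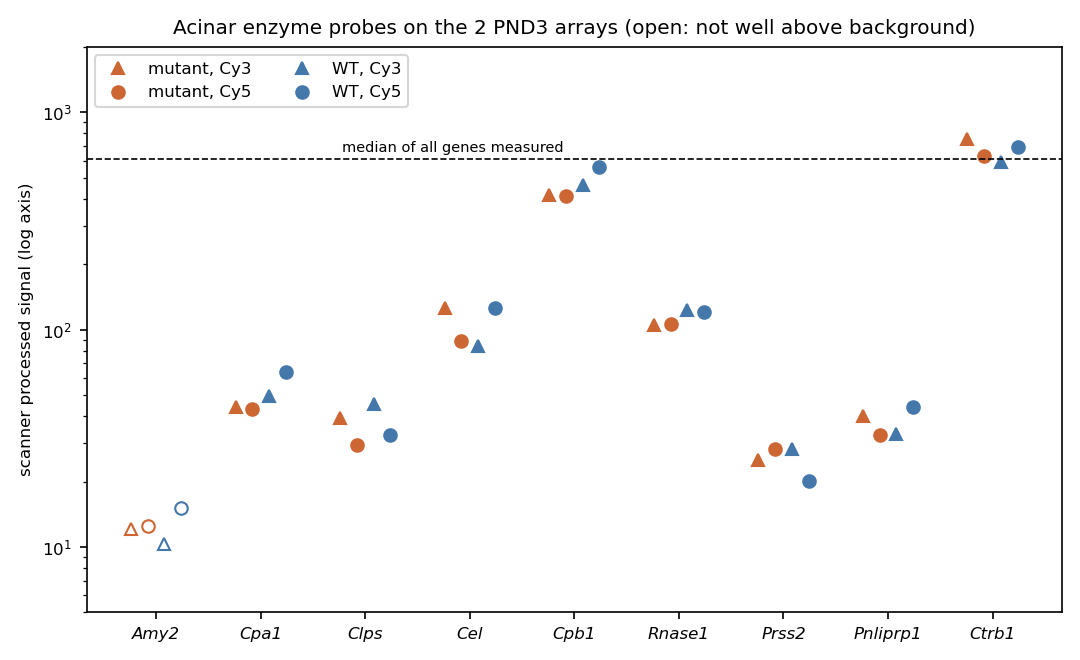
Scanner processed signal (log axis) of each enzyme's brightest probe in the mutant and WT pools on the 2 PND3 arrays; triangles are Cy3, circles Cy5, and open symbols are readings not well above background. The readings of every measured member but Ctrb1 lie below 607.3, the median over all genes measured, and Amy2 lies between 10.3 and 15.2.

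In all, 4 members were lower in the mutant pool on both arrays (Cpa1, Cpb1, Rnase1 and Pnliprp1), 2 were higher on both (Cel and Ctrb1) and 2 changed sign (Clps and Prss2). Over all genes, 37.9% were lower and 30.9% higher on both arrays. The members' median ratio was -0.08, against -0.01 over all genes. The widest mean ratio of a member was that of Cpb1, and 13.9% of the 10459 genes with a mean signal of 20 to 750 had a mean ratio of at least 0.25 in size. Ratios of the same gene on the 2 arrays differed by a median of 0.11 over all genes, so most of these ratios are of the size of the difference between arrays.

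**Figure D5:**
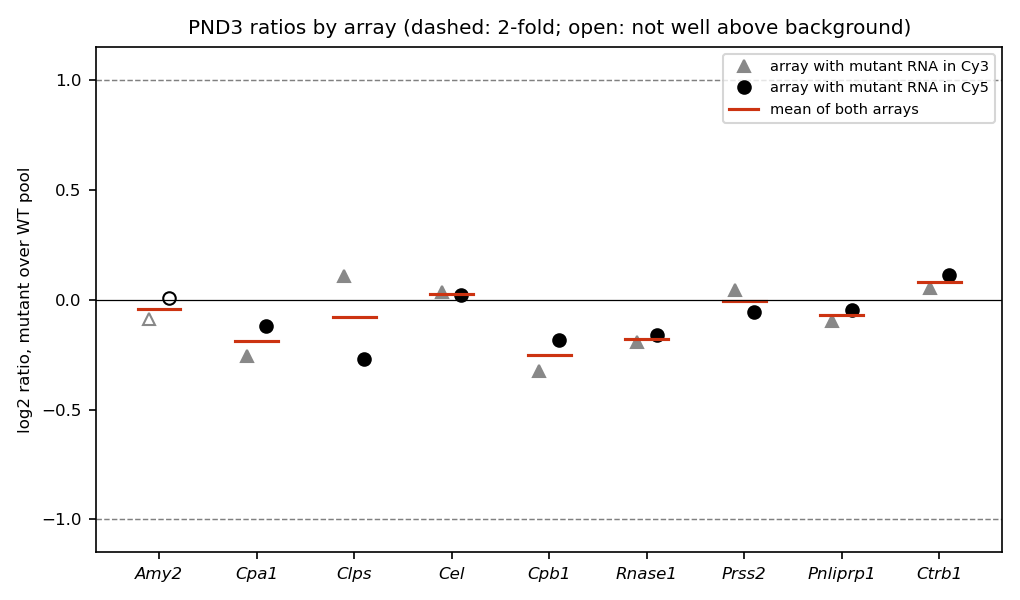
Log2 ratio of the mutant pool over the WT pool (vertical axis) for each enzyme with mutant RNA in Cy3 (triangles) or in Cy5 (circles), with their mean (red line); dashed lines mark 2-fold, and the open Amy2 symbols are not well above background. All points lie between -0.32 and 0.11, and of the measured members Clps and Prss2 have opposite signs on the arrays.

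Other acinar secretory genes also gave low signals at PND3. Of 22 further acinar secretory genes, 18 had a probe and 14 were measured, all below the median signal of all genes, with a range of 23.7 to 382.8. None was 2-fold apart. The mutant pool was higher on both arrays for 3 of them and lower for 2, while 9 changed sign, with a median ratio of 0.0028. Among the brightest were Dnase1 (a secreted nuclease, mean ratio 0.01), Amy1 (the salivary and liver amylase, 0.04), Try5 (a trypsin, 0.10), Prss3 (a trypsin, -0.0047) and Sycn (a zymogen granule protein, 0.14). Of 7 acinar transcription factors, 6 were measured and none was 2-fold apart. The mutant pool was lower on both arrays for 3 of them, Nr5a2, Gata6 (-0.32) and Gata4 (-0.19), and higher for Xbp1 (0.13), with a median ratio of -0.12. Xbp1, at mean signals of 3325 (mutant) and 3032 (WT), and Gata6, at 1772 and 2239, read above the median signal of all genes, 607.3. The other 4 of the 6 measured factors lay below it. Ptf1a, the factor that defines the acinar lineage, was not well above background. Rbpjl stood at a mean ratio of -0.03 with signals of 70.3 (mutant) and 72.0 (WT), and Bhlha15 at -0.06 with 57.4 and 60.5. Nr5a2 had the lowest mean ratio of the list, -0.79, with mean signals of 168.5 (mutant) and 341.2 (WT). Its ratios on the arrays were -0.999 and -0.585, after the offset of 50 that draws ratios toward 0.

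Markers of other tissues were read in the same RNA. All 6 kidney markers were measured, from Pax2 (a kidney and urinary tract factor) at mean signals of 48.8 for mutant and 41.1 for WT RNA to Umod (uromodulin) at 47875 and 50921. On both arrays 4 of the 6 were higher in the mutant pool, with Aqp2 (the collecting duct water channel) at the highest mean ratio, 0.49, while Slc12a1 (a salt transporter of the nephron) was lower on both at -0.20 and Umod changed sign at -0.09. The list's summed signal, 87858 for mutant and 87906 for WT RNA, is carried by the probes of Umod, Slc12a1 and Aqp2. Several other lists were mostly lower in the mutant pool on both arrays. These were mesenchyme (4 of 5 measured, median ratio -0.45), erythroid (4 of 4, -0.38), leukocyte (3 of 4, -0.27), liver (2 of 3, -0.64) and spleen markers (2 of 2, -0.20), against 37.9% of all genes. Of the 8 enzymes measured, 4 were lower and 2 higher on both arrays, at a median ratio of -0.08. The remaining liver gene measured, Alb (albumin), was higher on both arrays, at a mean ratio of 0.55. Duct markers were split, with 3 of 6 higher and 2 lower. Gut markers went the other way, with 2 of 3 higher on both arrays and 0 lower on both (median ratio 0.05). Of 8 islet markers 5 were measured, with Ins2 (insulin) at 89.1 and 88.9. On both arrays 2 of the 5 were higher in the mutant pool and 2 lower, with Ghrl (ghrelin) highest at a mean ratio of 0.48. Amy2 and Ptf1a were among the acinar genes not well above background in either pool. Measured were 8 of the 9 enzymes, 14 of the 18 further secretory genes with a probe, and 6 of the 7 acinar factors. The probes of Umod, Slc12a1 and Aqp2 read far above every enzyme, so the label alone does not establish which tissue the PND3 pools hold. The tissue content of the pools was not tested. The spots of Ctrb1 read 10.1 to 16.6 times their local background and those of Cpb1 6.59 to 13.0 times, and those of the other 6 measured enzymes 1.47 to 4.14 times. The part of tissue makeup in the enzyme ratios was not tested. Levels were not compared between ages, because the platforms differ and the tissue of the PND3 pools is not established. The PND3 differences also come from 1 pool per genotype, and the offset draws dim ratios toward 0. Set side by side, Cpb1 differed by 1.03 at E15.5 with all arrays, by -0.0028 without WT replicate 2, and by -0.25 at PND3. Cpa1 differed by 0.13 and -0.19, Ctrb1 by 0.17 and 0.08, and Cel by 0.49 and 0.03.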

How the data were processed

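RNA labelled as pancreas was measured on arrays. For E15.5 the authors deposited linear intensities, and the sources used here do not give the steps behind them. The PND3 scanner files hold, per the file headers, spot, background and processed intensities, a log10 ratio of Cy5 over Cy3 and quality flags. The authors also deposited a table of log2 ratios from those arrays. It gave r = 1.00 with the scanner ratio in size, a median of 0 per array, and the sign of mutant over WT. Feature Extraction, Agilent's scanning software, is version 8.1 per the submitters' processing notes and 9.1.3.1 per the file headers.

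Calculations ran in R 4.3.3 with limma 3.58.1. For E15.5, intensities of probe sets with a value on every one of the 7 arrays went through quantile normalization and log2(value + 16). This scale understates changes of dim probe sets. Probe sets above the 40th percentile of mean level were fitted on all samples (eBayes, trended prior; calls at an adjusted p under 0.05 after Benjamini-Hochberg), and the script was tested on simulated data. The members' probe sets were fixed by ID. Nothing in the labels ties a sample to its own embryo or litter, so the p-values reflect only sample-to-sample spread, part of which may be technical. The number of arrays limits the precision.

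For PND3, normexp (offset 50) handled background, which draws dim ratios toward 0, then loess was applied within arrays with control spots at weight 0. The ratio of the array with mutant RNA in Cy3 was turned. Outlier spots (18 and 26) were left out. The brightest probe stood for a gene. Names came from the files and, for 22951 of 41174 probes, from RefSeq (GRCm38.p6) by accession.

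Members and gene lists were chosen with earlier results of these data known. By rule, named genes were the 9 members and up to 6 of the brightest genes of each other acinar list at PND3. Rbpjl, Bhlha15 and Nr5a2 fall within the 6. The rule also allowed the probe sets closest to the members' median profile and, where a result needed them, the 2 brightest markers of another tissue. Named outside the rule were Glis3, Ptf1a, the receptors, the kidney markers Aqp2 and Pax2, and the markers Ins2 and Alb. One gene that the rule names is not reported here. Alternatives changed scaling, background, offset, filter, variance model, array weights, block and arrays used.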

Additional observations from a re-analysis of the deposited data

Results flagged for a closer look

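Among the 4 mutant samples at E15.5, Amy2 had 1 sample set apart from the rest. On the normalized log2 scale the gap between mutant replicate 3 (14.97) and the other arrays (15.03 each) was 1.0 of the group's whole range, above Dixon's 95% critical value for 4 samples. The other 3 share 1 value because Amy2 is their brightest probe set and quantile normalization gives equal ranks equal values. In the deposited intensities the widest gap was 0.796 of the range, below the critical value, and the sample apart was mutant replicate 5. Chance passes the critical value in about 1 in 20 groups of untied values, so that rate does not hold for this tied group. In all, 9 members were examined.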

How the results depend on the processing

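The count of members called at E15.5 was 0 under all 16 alternatives run, and so was the count of members 2-fold apart at PND3 under all 8. Allowing empty E15.5 cells was chosen after the data were seen. The lowest adjusted p of any member at E15.5, by limma, was 0.118 (Cel, with the replicate block), and others ran up to 1. Left-out arrays gave -0.0028 to 1.57 for Cpb1, -0.26 to 0.96 for Prss2, 0.24 to 0.82 for Cel, 0.016 to 0.28 for Clps, 0.024 to 0.11 for Amy2, 0.11 to 0.22 for Ctrb1, 0.13 to 0.15 for Cpa1 and -0.13 to 0.10 for Pnliprp1. The lowest values for Cpb1 and Prss2 came without WT replicate 2 and were the only ones with their sign turned. The Pnliprp1 difference turned to 0.15 with median centring, to 0.024 with array weights and to 0.10 without WT replicate 2, and the cause was not tested. With a replicate block, which takes the differences from replicates 2 and 3 alone, they were 1.56 for Cpb1, 1.01 for Prss2 and 0.82 for Cel. In that fit 0 members were called. Same-numbered samples (2 and 3) had deviations correlated at 0.06 and 0.54, and 2 pairs cannot establish a pairing. At PND3 the scanner's ratios put Cpa1 at -0.37 and Prss2 at 0.17, and median centring put Ctrb1 at -0.07 and Cel at -0.0045. At PND3 the Amy2 probe was not well above background, so that gene has no ratio to interpret.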

Other observations

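Receptors through which hormones and nerves make acinar cells release their enzymes were read at PND3 as well. This bulk RNA does not show which cells express them, and whether these readings come from acinar cells was not tested. A probe read 4 of these 5 genes above background, with no 2-fold ratio among them. Cckar, the receptor of cholecystokinin, stood at log2 ratios of 0.13 and 0.18 on the arrays, with mean signals of 1048 (mutant) and 933.6 (WT). Chrm3, the muscarinic receptor of the acinar cell, stood at 0.00088 and -0.02, with 30.8 and 33.6. Chrm1 stood at -0.26 and -0.28, with 725.8 and 886.8.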
